A study of Mus musculus with 8 samples.

Results

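The p53 pathway genes examined here are 32 mouse genes, namely Trp53, which encodes p53, its paralog Trp73, the p53 inhibitors Mdm2 and Mdm4, and 28 genes known as p53 targets. They were listed by name, by a rule that contains no measured value, and all 32 were found among the 55335 genes of the counts. Of these, 31 passed the filter on low counts and were tested. The remaining one, Fas, a death receptor, had between 2 and 12 counts in a library. RNA-seq of polyA RNA was performed on E14 ESCs, a mouse embryonic stem cell line, in 4 groups of 2 replicates. Every group, the control included, had been infected with an shRNA lentivirus and selected with puromycin, and all were grown with LIF, the GSK3 inhibitor CHIR99021 and the MEK inhibitor PD0325901. The control group carried an shRNA labelled as negative control, and the other groups carried shRNAs against Sox2, a pluripotency transcription factor, against Hnrnpk, which encodes an RNA-binding protein, or against Cdk9, which encodes the kinase of the elongation factor P-TEFb. Which of the shRNAs against a gene was used for each library is not given in the sources used here, so that an effect of the hairpin and an effect of the knockdown (KD) cannot be told apart.

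The 8 libraries held between 16709201 and 17719366 counts. Sox2 was at 68.0% and 60.1% of its control mean in the Sox2-KD libraries, and Cdk9 was at 61.4% and 44.7% in the Cdk9-KD libraries. In the hnRNPK-KD group, Hnrnpk was at 62.7% in replicate 1 but at 103% in replicate 2, which does not show the reduction its label implies, and both are called hnRNPK-labelled libraries here. All 10 ESC markers examined were detected in every library. All values are from bulk RNA, in which fewer cells of a type and less RNA per cell cannot be told apart.

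p53 is a transcription factor that is held at low activity by MDM2 and MDMX, the products of Mdm2 and Mdm4, and is stabilised by DNA damage and other stress. Its targets arrest the cell cycle (Cdkn1a), start mitochondrial apoptosis (Bax, Bbc3, Pmaip1), repair DNA (Xpc, Ddb2), limit oxidants (the sestrins) and, through Mdm2, restrain p53 itself. Mouse ESCs are known to contain abundant p53, and Sox2 loss is known to move them toward trophectoderm.

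RefSeq promoter sequences (GRCm38.p6, 250 bases before to 50 bases after a start) were available for 24 of the 32 genes, in 33 windows. They are shown for the genes on which the results turn, as far as the bases lie before the start and outside annotated exons. The upstream start of Cdkn1a carries a p53 consensus site, 2 half-sites of 10 bases separated by up to 13 bases, with 0 mismatches. That pair begins 73 bases before the start and has a spacer of 12 bases. The capitals also mark a second pair, which shares bases with it, has at most 1 mismatch and ends 32 bases before the start.

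Cdkn1a upstream, chr17:29090729-29090975, strand +: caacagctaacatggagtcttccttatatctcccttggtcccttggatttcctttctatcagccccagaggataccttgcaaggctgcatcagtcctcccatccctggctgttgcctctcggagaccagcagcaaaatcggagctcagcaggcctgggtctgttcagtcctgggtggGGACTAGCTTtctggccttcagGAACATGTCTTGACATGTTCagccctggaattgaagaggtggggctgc

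With at most 1 mismatch, such a site was found in 5 of the 33 windows (15.2%), of Cdkn1a, Ccng1, Gtse1, Bax and Polk, and in 1.09% of all 32817 windows of the same length. The other windows of Cdkn1a, Gtse1 and Polk had 5, 4 and 4 mismatches at best. The Polk window with the site (chr13:96519138-96519437) lies at a start inside the gene, whose annotated 5' end is at 96542579 on the − strand. With at most 2 mismatches it was found in 10 windows (30.3%), against 10.1% of all. Windows can overlap, and both Aen windows among these 10 hold the same site. The sites of Ccng1, Bax and Polk are given below with 8 flanking bases on each side and the half-sites in capitals, and that of Gtse1 reaches into the transcribed part and is not shown.

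Ccng1 site, chr11:40755454-40755489, strand −: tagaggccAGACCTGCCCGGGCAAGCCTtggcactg

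Bax site, chr7:45467082-45467118, strand −: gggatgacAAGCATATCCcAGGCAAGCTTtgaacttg

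Polk site, chr13:96519390-96519426, strand −: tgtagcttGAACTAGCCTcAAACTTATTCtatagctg

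Among the other genes that were DE in a comparison below, Plk3 and Gadd45b had 3 mismatches at best, and Sesn1 had 2 in one of its windows and 5 in the other. Pmaip1, which was also DE in a comparison below, had no window among the 33 and was not examined for sites. Plk2 and Btg2, whose log2FC in Sox2-KD were among the 4 highest, had 4 mismatches at best. Plk2 and Btg2 each carried the cAMP response element TGACGTCA (capitals, the same on both strands), which is 6.06% of the 33 windows against 1.79% of all windows.

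Plk3 upstream, chr4:117133964-117134213, strand −: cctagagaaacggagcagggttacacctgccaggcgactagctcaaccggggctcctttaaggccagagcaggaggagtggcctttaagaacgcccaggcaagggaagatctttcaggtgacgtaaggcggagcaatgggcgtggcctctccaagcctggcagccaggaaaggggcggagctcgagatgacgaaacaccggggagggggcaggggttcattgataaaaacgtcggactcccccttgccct

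Plk2 upstream, chr13:110394794-110395043, strand +: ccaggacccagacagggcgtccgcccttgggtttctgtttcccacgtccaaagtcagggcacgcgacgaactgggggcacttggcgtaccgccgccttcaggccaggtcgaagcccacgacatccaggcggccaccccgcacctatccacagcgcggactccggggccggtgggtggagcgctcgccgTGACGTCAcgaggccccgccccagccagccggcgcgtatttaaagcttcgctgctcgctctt

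Gadd45b upstream, chr10:80929841-80930072, strand +: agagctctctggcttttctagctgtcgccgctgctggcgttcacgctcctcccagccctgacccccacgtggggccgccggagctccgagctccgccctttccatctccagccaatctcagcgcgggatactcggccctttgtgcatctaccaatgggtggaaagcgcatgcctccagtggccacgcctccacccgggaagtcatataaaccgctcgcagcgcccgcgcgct

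Btg2 upstream, chr1:134079156-134079405, strand −: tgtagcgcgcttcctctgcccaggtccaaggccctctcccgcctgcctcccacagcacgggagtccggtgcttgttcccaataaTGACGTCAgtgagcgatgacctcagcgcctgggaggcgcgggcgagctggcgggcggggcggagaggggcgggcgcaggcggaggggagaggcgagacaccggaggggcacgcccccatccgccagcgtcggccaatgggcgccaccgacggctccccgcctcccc

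Both motifs were chosen after these sequences were seen. A match describes letters, not a bound site, and the lack of one says only that the letters are not in the window.

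In control E14 ESCs the genes differed widely in level. Per kilobase of exon, where CPM is the count of a gene scaled to its library after TMM normalization, Ccng1 (cyclin G) was highest with a mean level of 142 CPM per kb. Trp53inp1 followed with 86.8, Cdkn1a with 77.0, Trp53 with 69.4, Gtse1 with 67.7 and Bax with 62.3 CPM per kb. The lowest levels were those of Fas with 0.220, Rrm2b with 0.964, Trp73 with 1.05 and Plk3 with 2.93 CPM per kb. The CPM of Trp53 in the control libraries were 263 and 299, those of Cdkn1a 276 and 271, and those of Ccng1 568 and 431, so that Trp53 and Cdkn1a did not differ beyond their spread in CPM.

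**Figure D1:**
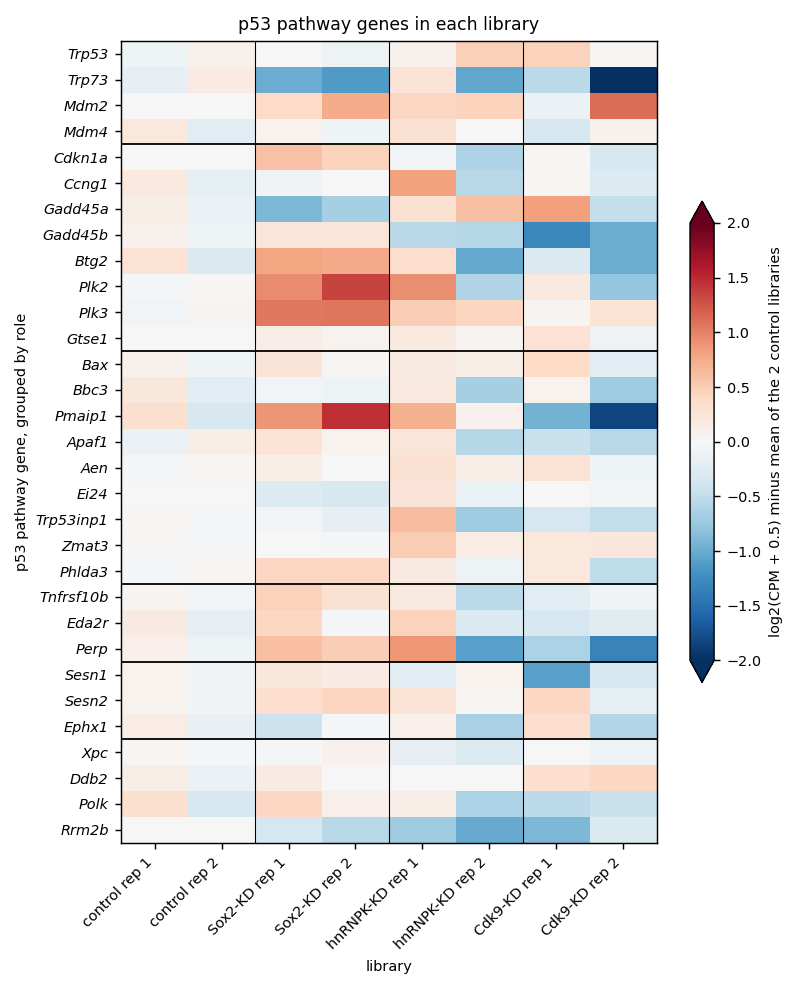
Each cell gives log2(CPM + 0.5) of one tested p53 pathway gene (rows, grouped by role) in one library (columns) minus the mean of the 2 control libraries. Plk3 is high in both Sox2-KD libraries, Gadd45b is low in both Cdk9-KD libraries, and many genes are high in hnRNPK-labelled replicate 1 and low in replicate 2.

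In Sox2-KD E14 ESCs, Plk3, which encodes a stress-responsive polo-like kinase, was the one p53 pathway gene that rose, to 2.16-fold of control. Genes were called differentially expressed (DE) where edgeR's quasi-likelihood test over all 16504 tested genes gave an adjusted p (Benjamini-Hochberg) under 0.05 and the log2FC exceeded 0.6 in size. By this rule 1 of 31 genes was higher and 0 were lower, where 2.63% of all tested genes were DE and higher. At an unadjusted p under 0.05, 4 genes were higher (Plk3, Pmaip1, Plk2 and Cdkn1a) and 0 were lower, against 11% and 8.25% of all genes. Both Sox2-KD libraries lay above both control libraries for 13 genes and below them for 5, against 28.2% and 25.2% of all genes. The median log2FC of the 31 genes was 0.14, and that of all tested genes was 0.02. Without control replicate 2 or Sox2-KD replicate 1 the median was 0.04 or 0.06, without Sox2-KD replicate 2 it was 0.23, and without the filter it was 0.09.

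Among the regulators, Trp53 itself was at 263 and 299 CPM in control and at 279 and 261 CPM in Sox2-KD E14 ESCs. Its groups overlapped, with a log2FC of -0.06 (95% interval from -0.46 to 0.35, adjusted p = 0.904), and the log2FC was 0.03 without control replicate 2. Mdm2, the ubiquitin ligase gene that p53 induces, was at 177 and 174 CPM in control and at 227 and 292 CPM in Sox2-KD. Both Sox2-KD libraries were above the control libraries, and the log2FC of 0.57 (SE 0.30, adjusted p = 0.347) did not pass. Mdm4 had a log2FC of -0.02 (adjusted p = 0.967). Trp73, the p53 paralog, had 90 and 114 counts in control and 48 and 41 counts in Sox2-KD, a log2FC of -1.22 (SE 0.60, adjusted p = 0.304).

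Of the 8 cell cycle and checkpoint genes, 6 lay above both control libraries and 1 below, against 28.2% and 25.2% of all genes. Plk3 (ENSMUSG00000028680.14, chromosome 4, 117128655 to 117133963, − strand, GRCm38) was at 7.15 and 7.68 CPM in control and at 16.0 in each Sox2-KD library. The replicates of both groups were close and far apart from the other group, and the log2FC was 1.11 (SE 0.22, adjusted p = 0.0209). An exon of Plk3 shares 84 bases with Tctex1d4 on the other strand. The call needed all 4 libraries, since the adjusted p was 0.148 without control replicate 1, 0.123 without control replicate 2, 0.0782 without Sox2-KD replicate 1 and 0.120 without Sox2-KD replicate 2, while the log2FC remained between 1.04 and 1.16. Plk2, a related kinase gene, was at 56.1 and 57.4 CPM in control and at 110 and 146 CPM in Sox2-KD. Its log2FC of 1.18 had a larger error (SE 0.42, adjusted p = 0.154), and it was DE with only the 4 libraries compared (adjusted p = 0.00941) and without hnRNPK-labelled replicate 1 or replicate 2 (adjusted p = 0.0423 and 0.0422). Cdkn1a (ENSMUSG00000023067.14, chromosome 17, 29090976 to 29100727, + strand), the gene of the cyclin-dependent kinase inhibitor p21, was at 276 and 271 CPM in control and at 412 and 377 CPM in Sox2-KD. Both Sox2-KD libraries were higher, and neither threshold was passed (log2FC 0.53, SE 0.19, adjusted p = 0.158). Gadd45a, a growth arrest gene, was at 9.57 and 8.08 CPM in control and at 4.51 and 5.36 CPM in Sox2-KD, with a log2FC of -0.84 (SE 0.39, adjusted p = 0.271). Its exons share 15.6% of their 50-base stretches with E230016M11Rik on the other strand, which had at most 31 counts. Btg2, an antiproliferative gene, was at 75.1 and 49.8 CPM in control and at 107 and 104 CPM in Sox2-KD, with a log2FC of 0.75 (adjusted p = 0.313), and Gadd45b, Gtse1 and Ccng1 lay between -0.04 and 0.25.

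Of the mitochondrial apoptosis genes, Pmaip1 (ENSMUSG00000024521.8), which encodes the BH3-only protein NOXA, had the largest difference. It was at 20.6 and 12.9 CPM in control and at 30.4 and 45.6 CPM in Sox2-KD E14 ESCs, so that the groups did not overlap but each spread widely. The log2FC was 1.18 (SE 0.35, adjusted p = 0.0894), and DESeq2 (adjusted p = 0.0102), the likelihood ratio test (adjusted p = 0.0221) and the fit with only the 4 libraries compared (adjusted p = 0.0487) called it higher. Bbc3, which encodes the related protein PUMA, had a log2FC of -0.10, and Bax, which forms pores in the outer mitochondrial membrane, one of 0.14. Phlda3, a repressor of AKT signalling, was at 69.1 and 72.1 CPM in control and at 93.9 and 94.2 CPM in Sox2-KD, with close replicates and no overlap (log2FC 0.41, SE 0.21, adjusted p = 0.331). Ei24 was at 202 and 199 CPM in control and lay below that in Sox2-KD, at 166 and 161 CPM (log2FC -0.29, adjusted p = 0.341). Over the 9 genes of this role, which also include Apaf1, Aen, Ei24, Trp53inp1, Zmat3 and Phlda3, log2FC ranged from -0.29 to 1.18 and 0 were DE. The 3 tested receptor and membrane genes, Tnfrsf10b, Eda2r and Perp, were between 0.20 and 0.56. Tnfrsf10b, a TRAIL receptor gene, was at 34.2 and 31.7 CPM in control and at 45.7 and 41.0 CPM in Sox2-KD (adjusted p = 0.375). Sesn2 was at 124 and 112 CPM in control and at 149 and 159 CPM in Sox2-KD, both above the control libraries. The sestrin genes Sesn1 and Sesn2 had log2FC of 0.19 and 0.39, and the detoxification gene Ephx1 one of -0.23. The DNA repair genes Xpc, Ddb2 and Polk were between 0.03 and 0.23, and Rrm2b, a ribonucleotide reductase subunit gene, was at -0.48. None of these was DE. The 5 genes with a window that held a p53 site with at most 1 mismatch, shown above except for Gtse1, had log2FC of 0.53 (Cdkn1a), 0.23 (Polk, at a start inside the gene), 0.14 (Bax), 0.10 (Gtse1) and -0.04 (Ccng1). Plk3, the DE gene, had 3 mismatches at best.

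**Figure D2:**
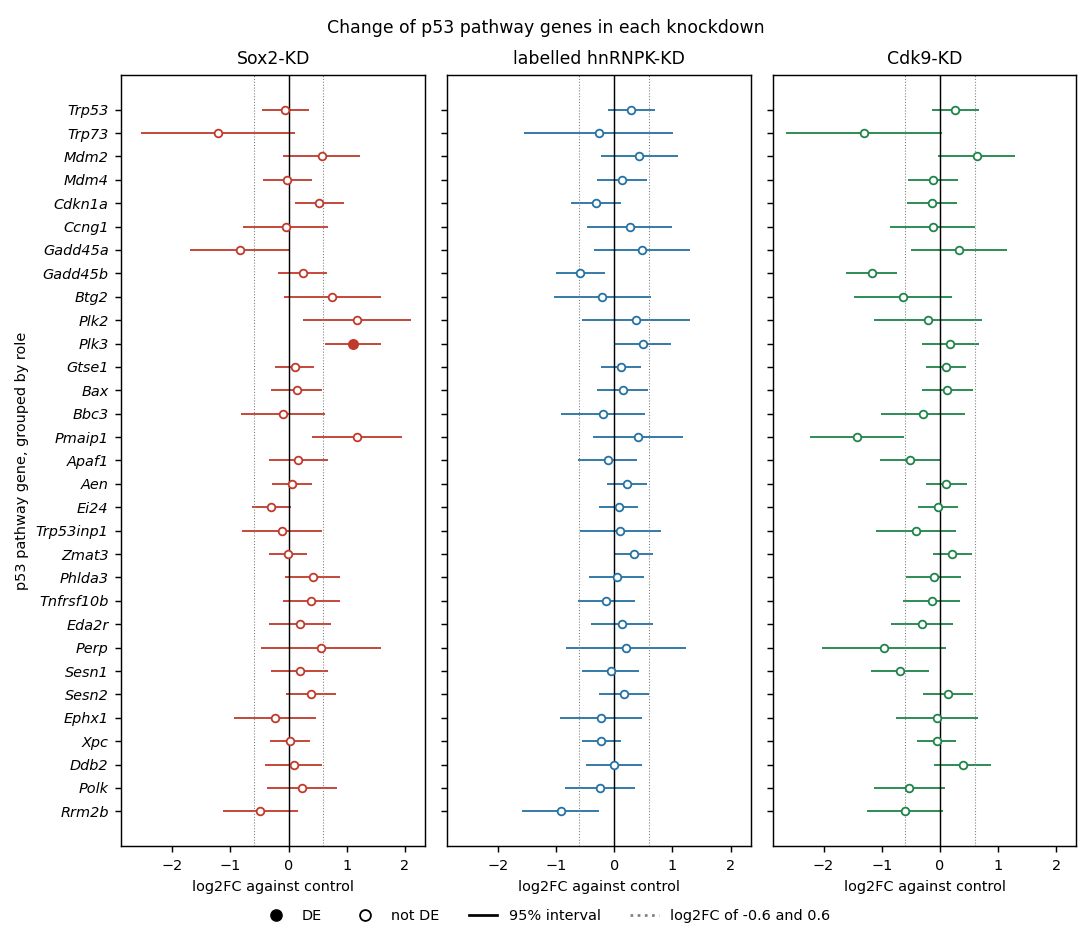
Each point gives the log2FC of one tested p53 pathway gene against control with its 95% interval from edgeR, for Sox2-KD, the hnRNPK-labelled libraries and Cdk9-KD. The single filled point, Plk3 in Sox2-KD at 1.11, is the one DE gene, and the intervals of most other genes cross 0.

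Markers of other cell types also differed, in both directions. Of 9 trophectoderm markers, 7 were tested, and in Sox2-KD the keratin genes Krt7, Krt8 and Krt18 and the transcription factor gene Eomes rose. Cdx2, a defining transcription factor of trophectoderm, was at 19.8 and 35.1 CPM in control and at 6.10 and 6.22 CPM in Sox2-KD (log2FC -2.15, SE 0.54, adjusted p = 0.0521), and Tfap2c had a log2FC of -0.50 (adjusted p = 0.398). The summed level of the list was 91.4 and 103 CPM in control, 189 and 322 CPM in Sox2-KD, 98.7 and 131 CPM in the hnRNPK-labelled libraries and 83.7 and 82.0 CPM in Cdk9-KD. Krt8 alone was at 97.1 and 182 CPM in Sox2-KD. In Cdk9-KD, Eomes rose, from 3.83 and 2.58 CPM to 19.5 and 14.2 CPM (log2FC 2.39, adjusted p = 0.0191), and Tfap2c fell, from 43.4 and 43.0 CPM to 13.1 and 7.81 CPM (log2FC -2.04, adjusted p = 0.0416). In the hnRNPK-labelled libraries 0 of the 7 were DE, and Cdx2 was at 20.3 CPM in replicate 1 and at 85.1 CPM in replicate 2.

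Of 9 primitive endoderm markers, 7 were tested, and in Sox2-KD Gata6 and Dab2 rose and Lama1 fell, with a summed level of 254 and 225 CPM in control and 153 and 213 CPM in Sox2-KD. Lama1 alone was at 243 and 217 CPM in control, where Sox7 was at 0 in both libraries. Of the 9 fibroblast markers, 5 were tested and 3 of these had log2FC below 0 in Sox2-KD, the lowest being Col1a2 at -3.44 (adjusted p = 0.0565), while Lum rose with at most 23 counts. Their summed level was between 8.85 and 18.3 CPM in any library, and Dcn, Postn and Fap were at 0 in both control libraries. Of the 10 ESC markers, 7 had log2FC below 0 in Sox2-KD, with a median of -0.20. Of the 10, 3 were below both control libraries (Pou5f1, Nanog and Esrrb) and 1 was above, against 25.2% and 28.2% of all genes. Nanog had a log2FC of -0.43 (adjusted p = 0.161), and Utf1 was the one ESC marker that was DE in Sox2-KD, where it was higher (log2FC 0.80, adjusted p = 0.0328). The mean of Utf1 was 28.3 CPM in control and 49.3 CPM in Sox2-KD. It was also above control in the hnRNPK-labelled libraries (43.1 CPM) and in Cdk9-KD (50.9 CPM). In the hnRNPK-labelled libraries and in Cdk9-KD 0 primitive endoderm, fibroblast or ESC markers were DE. The part of such cells in the values of the p53 pathway genes was not tested.

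In the hnRNPK-labelled libraries, 0 of 31 p53 pathway genes were DE by edgeR's quasi-likelihood test, where 0% of all tested genes were. DESeq2 and the likelihood ratio test also called 0 of them, against 0.503% and 0.527% of all genes, and 0 were DE without replicate 2, in which Hnrnpk was not reduced. At an unadjusted p under 0.05, 2 genes were higher (Zmat3 and Plk3) and 2 were lower (Rrm2b and Gadd45b), against 3.48% and 4.55% of all genes. Both libraries lay above both control libraries for 7 genes and below for 4, against 20.4% and 18.7% of all genes. The median log2FC was 0.11, but it was -0.29 without replicate 1 and 0.25 without replicate 2 of this group.

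Rrm2b was at 8.73 and 8.88 CPM in control and at 5.16 and 4.13 CPM in the hnRNPK-labelled libraries. Its log2FC was -0.92 (SE 0.30, adjusted p = 0.494), and its exons share 6.41% of their 50-base stretches with the antisense gene Gm49085. Gadd45b, a growth arrest gene of the same family as Gadd45a, was at 23.3 and 20.9 CPM in control and at 14.8 and 14.7 CPM here, a log2FC of -0.58 (SE 0.19, adjusted p = 0.506). Both genes were lower in both libraries without overlap. Zmat3, which encodes an RNA-binding zinc finger protein, was at 129 and 124 CPM in control and at 179 and 141 CPM here (log2FC 0.34, SE 0.15, adjusted p = 0.602). Plk3 was at 10.7 and 10.2 CPM, above its control level of 7.15 and 7.68, with a log2FC of 0.49 (SE 0.22, adjusted p = 0.618). For Cdkn1a the libraries were at 262 and 178 CPM, both below the control libraries (log2FC -0.31, SE 0.19, adjusted p = 0.757), and the log2FC was -0.08 without replicate 2, in which Hnrnpk was not reduced, and -0.63 without replicate 1. Trp53 was at 298 and 390 CPM (log2FC 0.29, SE 0.18, adjusted p = 0.763) and Mdm2 at 233 and 240 CPM (log2FC 0.43, SE 0.30, adjusted p = 0.799). The Mdm2 replicates were close together, and those of Trp53 overlapped the control libraries.

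By role, the 4 DNA repair genes all had log2FC below 0 in the hnRNPK-labelled libraries, from -0.92 (Rrm2b) to -0.0048 (Ddb2), with a median of -0.23. Xpc, a damage sensor of nucleotide excision repair, was at 38.8 and 36.9 CPM in control and at 33.7 and 31.3 CPM here (log2FC -0.22, adjusted p = 0.801). Of the 9 mitochondrial apoptosis genes, 7 had log2FC above 0, the highest being Pmaip1 at 0.41 (adjusted p = 0.849), whose 27.0 and 17.3 CPM overlapped the control libraries. Gadd45a, at 11.0 and 13.6 CPM, lay above both control libraries (log2FC 0.48, adjusted p = 0.824), the opposite side from its relative Gadd45b.

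The 2 hnRNPK-labelled libraries differed from each other in the p53 pathway genes, mostly in 1 direction. Of the 31 genes, 27 were higher in replicate 1, and 13 (41.9%) were more than 1.5-fold higher there, while 0 were more than 1.5-fold higher in replicate 2. Over all tested genes 51.9% were higher in replicate 1, and 6.97% and 7.27% exceeded 1.5-fold in favour of replicate 1 and replicate 2. The direction was shared by the other groups, where 23 of the 31 genes in control, 21 in Sox2-KD and 20 in Cdk9-KD were higher in replicate 1. The shares of all genes there were 50.8%, 48.9% and 50.2%. The differences were largest for Perp, a membrane protein gene of apoptosis, at 53.1 against 13.3 CPM (3.98-fold), Plk2 at 109 against 37.3 CPM (2.92-fold) and Trp73 at 7.09 against 2.56 CPM (2.77-fold). Btg2 was at 78.4 against 29.97 CPM (2.62-fold), Ccng1 at 861 against 338 CPM and Trp53inp1, a stress-induced regulator of p53, at 866 against 343 CPM. Trp53 was in the other direction, 1.31-fold higher in replicate 2, and Mdm2, Plk3, Gadd45b, Bax, Xpc and Ddb2 differed by less than 1.1-fold. Replicate 1 is the library in which Hnrnpk was at 62.7% of control. With 1 library on each side there is no test of this difference, and what the libraries otherwise differ in cannot be told apart from the Hnrnpk level.

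**Figure D3:**
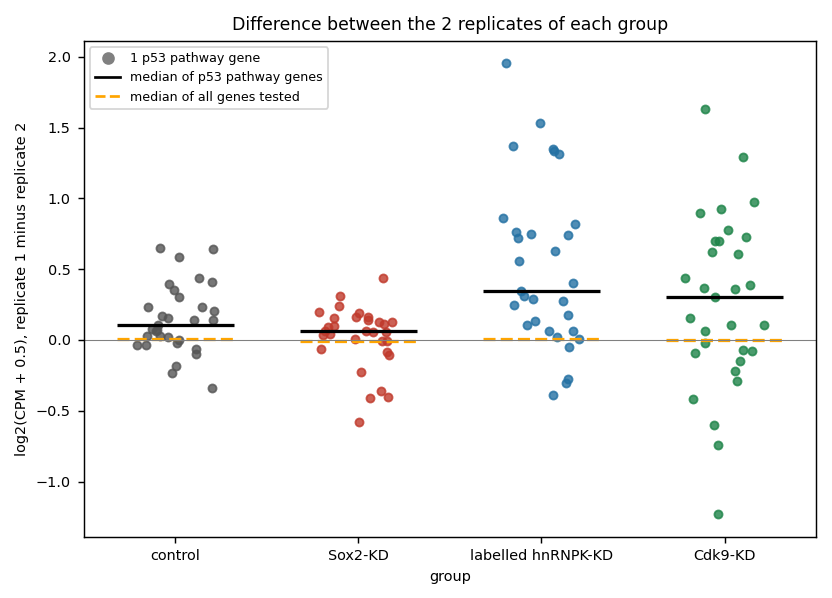
Each point gives log2(CPM + 0.5) of one p53 pathway gene in replicate 1 minus replicate 2 of its group, with the median of these genes as a solid line and that of all tested genes as a dashed line. The median of the p53 pathway genes is 0.35 in the hnRNPK-labelled libraries, 0.30 in Cdk9-KD, 0.11 in control and 0.06 in Sox2-KD, while the dashed lines lie near 0.

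The Cdk9-KD libraries also differed from each other, with 11 genes (35.5%) more than 1.5-fold higher in replicate 1 and 3 (9.68%) in replicate 2, against 9.5% and 8.47% of all genes. Trp73 was 4.28-fold and Gadd45a 2.57-fold higher in replicate 1. Mdm2, Sesn1 and Rrm2b were the 3 genes higher in replicate 2, by 2.35-fold, 1.68-fold and 1.58-fold. In the control group 3 genes exceeded 1.5-fold, all in replicate 1, against 7.03% of all genes, and 4.83% of all genes did so in replicate 2. In Sox2-KD 0 exceeded it in either direction (all genes, 3.35% and 10.1%). These counts were made on log2(CPM + 0.5), and on the ratio of CPM, in which single folds are given, Pmaip1 was 1.501-fold higher in Sox2-KD replicate 2. The median absolute difference between replicates of the 31 genes was 0.13 in Sox2-KD, 0.16 in control, 0.39 in the hnRNPK-labelled libraries and 0.41 in Cdk9-KD (log2). Relative to the mean over the 8 libraries, the median of the 31 genes was highest in hnRNPK-labelled replicate 1 (0.25 on the log2 scale) and lowest in Cdk9-KD replicate 2 (-0.31). It was 0.12 in each Sox2-KD library and 0.10 and -0.08 in the control libraries.

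In Cdk9-KD E14 ESCs, 0 of 31 p53 pathway genes were DE by edgeR's quasi-likelihood test, where 0.139% of all tested genes were. DESeq2 and the likelihood ratio test each called 2 of them, Gadd45b and Pmaip1, both lower, where these methods called 1.35% and 1.69% of all genes. At an unadjusted p under 0.05, 0 genes were higher and 3 were lower (Gadd45b, Pmaip1 and Sesn1), against 5.49% and 4.93% of all genes. Both Cdk9-KD libraries lay below both control libraries for 12 genes and above them for 3, against 18% and 21.2% of all genes. The median log2FC was -0.12, with -0.35 without Cdk9-KD replicate 1 and 0.01 without Cdk9-KD replicate 2, and that of all genes was 0.02.

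Gadd45b (ENSMUSG00000015312.9, chromosome 10, 80930073 to 80932204, + strand) had the smallest p. It was at 23.3 and 20.9 CPM in control and at 8.76 and 10.8 CPM in Cdk9-KD E14 ESCs, 2.25-fold lower with close replicates in both groups. The log2FC was -1.17 (SE 0.20), and the adjusted p of 0.0548 was just over the threshold. With DESeq2 the adjusted p was 0.000139, and over all alternatives it ranged up to 0.264. Pmaip1 was at 20.6 and 12.9 CPM in control and at 8.24 and 4.20 CPM in Cdk9-KD, with both libraries lower and a log2FC of -1.43 (SE 0.37, adjusted p = 0.212, and 0.00481 with DESeq2). Its log2FC was between -2.02 and -1.02 when single libraries were left out. Sesn1 (ENSMUSG00000038332.13), a sestrin gene that acts against oxidants and on TORC signalling, was at 49.1 and 44.5 CPM in control and at 21.7 and 36.5 CPM in Cdk9-KD. Both libraries were lower but unequal, and the log2FC was -0.69 (SE 0.23, adjusted p = 0.333), -1.11 without replicate 2 and -0.39 without replicate 1 of Cdk9-KD.

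Apaf1, the scaffold gene of the apoptosome, was at 71.3 and 83.8 CPM in control and at 56.4 and 52.4 CPM in Cdk9-KD (log2FC -0.51, SE 0.23, adjusted p = 0.481). Trp73 had 90 and 114 counts in control and 65 and 15 counts in Cdk9-KD (log2FC -1.30, SE 0.60, adjusted p = 0.491). Trp53 was at 388 and 286 CPM, overlapping the control libraries, with a log2FC of 0.26 (SE 0.18, adjusted p = 0.671) that was -0.01 without Cdk9-KD replicate 1. Mdm2 was at 162 CPM in replicate 1, below both control libraries, and at 380 CPM in replicate 2, above both. Its log2FC of 0.63 (SE 0.30, adjusted p = 0.508) therefore rested on replicate 2, without which it was -0.11. Cdkn1a was at 280 and 218 CPM against 276 and 271 CPM in control (log2FC -0.14, SE 0.19, adjusted p = 0.870), and its log2FC was 0.04 without Cdk9-KD replicate 2. The other genes had log2FC between -0.96 (Perp, adjusted p = 0.524) and 0.39 (Ddb2, adjusted p = 0.575). Ddb2 shares exon sequence with Acp2 on the other strand, so that its counting is uncertain. For the 3 tested receptor and membrane genes both Cdk9-KD libraries lay below both control libraries, as for 18% of all genes. Perp was at 18.5 and 11.2 CPM against 31.0 and 26.9 CPM in control. Eda2r was at 69.9 and 74.4 CPM against 100.1 and 78.3 CPM (log2FC -0.31, adjusted p = 0.712). Tnfrsf10b was only just below, at 28.3 and 31.4 CPM against 34.2 and 31.7 CPM (log2FC -0.14, adjusted p = 0.887). Trp53inp1 was at 445 and 400.0 CPM against 578 and 547 CPM in control (log2FC -0.41, adjusted p = 0.698). Plk3 was at 7.71 and 9.05 CPM, just above its control libraries (log2FC 0.18, adjusted p = 0.847). Among the genes with a p53 site in a window, Polk, a translesion DNA polymerase gene, was lowest with a log2FC of -0.52 (adjusted p = 0.546), and Bax, Gtse1, Ccng1 and Cdkn1a were between -0.14 and 0.13. The site of Polk lies at a start inside the gene.

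**Figure D4:**
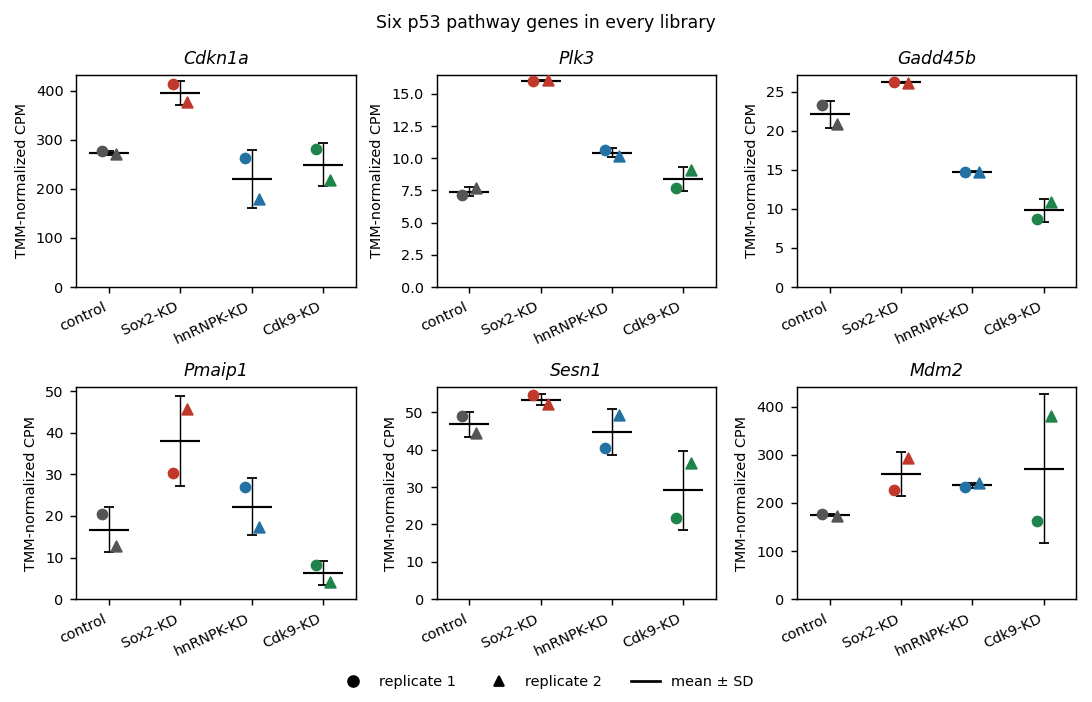
TMM-normalized CPM of Cdkn1a, Plk3, Gadd45b, Pmaip1, Sesn1 and Mdm2 in each library, with circles for replicate 1, triangles for replicate 2 and bars for the mean ± SD (n = 2), from 0. Sox2-KD libraries are above Cdk9-KD libraries for the first 5 genes without overlap, and the 2 Cdk9-KD libraries of Mdm2 lie at 162 and 380 CPM.

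The knockdowns were also compared directly, a comparison added after the data were seen, which does not involve the control libraries except in the common estimate of the spread. Between Sox2-KD and Cdk9-KD E14 ESCs, 4 of 31 genes were DE, all higher in Sox2-KD, where 4.77% of all tested genes were DE and higher. Pmaip1 differed most, with 30.4 and 45.6 CPM in Sox2-KD against 8.24 and 4.20 CPM in Cdk9-KD, a 6.10-fold difference (log2FC 2.61, SE 0.38, adjusted p = 0.00309). Gadd45b was at 26.3 and 26.1 CPM against 8.76 and 10.8 CPM, a 2.67-fold difference (log2FC 1.42, SE 0.20, adjusted p = 0.00285). Both remained DE in all 16 alternatives, with adjusted p up to 0.0264 for Pmaip1 and 0.0236 for Gadd45b. Plk3 was 1.91-fold higher (log2FC 0.93, SE 0.22, adjusted p = 0.0284), and Sesn1 was 1.84-fold higher (log2FC 0.88, SE 0.23, adjusted p = 0.0420), at 54.5 and 52.3 CPM against 21.7 and 36.5 CPM. The call of Plk3 was lost without any one of the Sox2-KD or Cdk9-KD libraries (adjusted p from 0.0721 to 0.145), without the filter (adjusted p = 0.0575) and with only the 4 libraries compared (adjusted p = 0.0540). That of Sesn1 was lost without either control library, either Sox2-KD library or Cdk9-KD replicate 1 (adjusted p from 0.0540 to 0.163), without the filter (adjusted p = 0.0619) and with only the 4 libraries compared (adjusted p = 0.0624). Cdkn1a, at 412 and 377 CPM against 280 and 218 CPM, had a log2FC of 0.67 (SE 0.19, adjusted p = 0.0638), and with the replicate number as a block it was one of 7 DE genes, together with Btg2 and Perp, where 7.06% of all genes were DE.

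Between Sox2-KD E14 ESCs and the hnRNPK-labelled libraries, 2 of 31 genes were DE, both higher in Sox2-KD, where 3.95% of all genes were. Cdkn1a was at 412 and 377 CPM against 262 and 178 CPM, a 1.79-fold difference (log2FC 0.84, SE 0.19, adjusted p = 0.0317). Gadd45b was at 26.3 and 26.1 CPM against 14.8 and 14.7 CPM, a 1.78-fold difference with replicates that nearly coincided (log2FC 0.83, SE 0.19, adjusted p = 0.0327). The call of Cdkn1a was lost without Sox2-KD replicate 1 (adjusted p = 0.103), Sox2-KD replicate 2 (adjusted p = 0.145) or hnRNPK-labelled replicate 2 (adjusted p = 0.210). That of Gadd45b was lost without any one library of control, Sox2-KD or the hnRNPK-labelled group (adjusted p from 0.0501 to 0.204) and without the filter (adjusted p = 0.0680). Gadd45a was on the other side, at 4.51 and 5.36 CPM against 11.0 and 13.6 CPM (log2FC -1.32, SE 0.39, adjusted p = 0.0749), and DESeq2 called it lower. Exons of Cdkn1a overlap AC167363.2 on the other strand, which had at most 147 counts. Between Cdk9-KD and the hnRNPK-labelled libraries, 0 genes were DE, where 0% of all genes were. The smallest adjusted p there was that of Pmaip1 (log2FC -1.83, SE 0.37, adjusted p = 0.340), which DESeq2 and the likelihood ratio test called lower in Cdk9-KD, where they called 0.339% and 0.406% of all genes. At an unadjusted p under 0.05, 4 genes (Pmaip1, Gadd45b, Sesn1 and Perp) were lower and 0 higher, against 2.29% and 3.42% of all genes.

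Genes that act on p53 were examined beside its targets. Of 20 such genes, 19 were tested, and in Sox2-KD E14 ESCs 2 rose and 1 fell, where 2.63% and 1.69% of all genes did. Ppp1r13b, which encodes the p53-binding protein ASPP1, went from 11.0 and 11.8 CPM in control to 28.7 and 31.7 CPM in Sox2-KD (log2FC 1.41, SE 0.24, adjusted p = 0.0119). Crebbp, a gene of a histone acetyltransferase that also acetylates p53, went from 51.4 and 54.9 CPM to 88.4 and 81.8 CPM (log2FC 0.68, SE 0.15, adjusted p = 0.0281). Chek1, the gene of a DNA damage checkpoint kinase, fell from 105 and 102 CPM to 62.3 and 50.6 CPM (log2FC -0.87, SE 0.19, adjusted p = 0.0305). For these genes the groups did not overlap. In the hnRNPK-labelled libraries and in Cdk9-KD E14 ESCs 0 of the 19 were DE by edgeR's quasi-likelihood test, with 2 higher and 2 lower at an unadjusted p under 0.05 in the former (all genes, 3.48% and 4.55%) and 3 higher and 1 lower in the latter (all genes, 5.49% and 4.93%). Of the 19, only Ppp1r13b was DE between Sox2-KD and the hnRNPK-labelled libraries (log2FC 2.09, adjusted p = 0.00287). The same held between Sox2-KD and Cdk9-KD (log2FC 2.09, adjusted p = 0.00176). Of all genes, 3.95% and 4.77% were DE and higher in these comparisons. The mean of Crebbp was 53.2 CPM in control, 85.1 CPM in Sox2-KD, 74.9 CPM in the hnRNPK-labelled libraries and 73.5 CPM in Cdk9-KD. That of Chek1 was 103, 56.5, 81.6 and 79.8 CPM in the same order.

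A further 18 genes known as p53 targets, all tested, held 0 DE genes in each comparison with control. Of all genes, 4.32% were DE in Sox2-KD, 0% in the hnRNPK-labelled libraries and 0.139% in Cdk9-KD. At an unadjusted p under 0.05, 1 was higher and 1 lower in Sox2-KD, against 11% and 8.25% of all genes. In the hnRNPK-labelled libraries 0 were higher or lower, against 3.48% and 4.55% of all genes. In Cdk9-KD 0 were higher and 1 was lower, against 5.49% and 4.93% of all genes. Trp53cor1, the long noncoding RNA upstream of Cdkn1a, was the gene that was higher in Sox2-KD, with 25 and 29 counts in control and 53 and 49 counts in Sox2-KD (log2FC 0.89, SE 0.38, adjusted p = 0.230). Their median log2FC was 0.05 for Sox2-KD, 0.09 for the hnRNPK-labelled libraries and -0.09 for Cdk9-KD. Since Pmaip1, Sesn2 and other p53 pathway genes are also induced by the stress factor ATF4, 10 ATF4 target genes were examined. In Sox2-KD E14 ESCs Psat1, a serine synthesis gene, fell (log2FC -0.83, SE 0.20, adjusted p = 0.0407), the other 9 were not DE, and the median log2FC was -0.42. This median was -0.44 in the hnRNPK-labelled libraries and -0.0033 in Cdk9-KD E14 ESCs, and 0 of the 10 were DE in either. At an unadjusted p under 0.05, 3 were lower in the hnRNPK-labelled libraries and 1 in Cdk9-KD, against 4.55% and 4.93% of all genes. In either, 0 were higher, against 3.48% and 5.49% of all genes.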

How the data were processed

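RNA-seq counts of 8 libraries of E14 ESCs (biological duplicates of 4 groups) were used. Per the methods, the authors trimmed reads with Trimmomatic and aligned them to mm10 with STAR. The submitters' processing notes name FastQC, STAR 2.7.9a, a version that differs from that in the methods, and featureCounts 2.0.1. The authors deposited whole-number read counts by gene and library, which had not been normalized or pooled. Whether strand was used, and how reads matching several genes were treated, is not given in the sources used here, so that overlapping and antisense genes are uncertain. The p-values measure only the spread between these duplicates. Symbols (55154 of 55335 genes) and coordinates came from GENCODE vM21 (GRCm38).

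Genes with low counts were removed (filterByExpr, minimum count 10 and total 15), and all 8 libraries were fitted with edgeR 4.0.16 in R 4.3.3 (TMM, group means, quasi-likelihood test, Benjamini-Hochberg adjustment), tested on simulated data. Genes past the thresholds are given in full, and in each comparison with control so are the 5 smallest p, Trp53, Mdm2 and Cdkn1a. Members and lists were chosen with earlier results of these data known. Alternatives included DESeq2 1.42.0. Every count column was used. CPM per kb used the union of exons.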

Additional observations from a re-analysis of the deposited data

Results flagged for a closer look

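Of the p53 pathway genes given in full, 6 differences between knockdowns passed a direct test, which means that the changes against control differ between those groups. Between Sox2-KD and Cdk9-KD E14 ESCs, the difference in log2FC was 2.61 for Pmaip1, 1.42 for Gadd45b, 0.93 for Plk3 and 0.88 for Sesn1, each higher in Sox2-KD. Pmaip1 had a log2FC against control of 1.18 in Sox2-KD and of -1.43 in Cdk9-KD, and Gadd45b of 0.25 and -1.17. Between Sox2-KD and the hnRNPK-labelled libraries, the difference was 0.84 for Cdkn1a and 0.83 for Gadd45b, both higher in Sox2-KD. Cdkn1a had a log2FC against control of 0.53 in Sox2-KD and of -0.31 in the hnRNPK-labelled libraries, which was -0.08 without their replicate 2 and -0.63 without their replicate 1. None of these changes against control passed both thresholds by itself, except that of Plk3 in Sox2-KD.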

How the results depend on the processing

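Of 448 alternative values of the 28 results of single p53 pathway genes, 406 kept their direction and their side of the threshold, 27 lost the call, 10 gained it and 5 reversed. In Sox2-KD against control, the number of DE p53 pathway genes was 1, with 2 under DESeq2, 3 with only the 4 libraries compared, 2 under the likelihood ratio test and 0 to 2 when single libraries were left out. The share of all genes was 4.32%, with 6.23% under DESeq2, 5.16% with only those 4 libraries and 8.18% under the likelihood ratio test. In Cdk9-KD it was 0, with 2 under DESeq2 and 2 under the likelihood ratio test. Between Sox2-KD and the hnRNPK-labelled libraries it was 2, with 1 without a filter (all genes, 5.9% and 2.49%) and 0 to 4 when single libraries were left out. Between Sox2-KD and Cdk9-KD it was 4, with 7 under DESeq2, 2 without a filter, 7 with only the 4 libraries compared, 9 under the likelihood ratio test and 2 to 9 when single libraries were left out. The share of all genes that were DE in that comparison was 7.33%, with 8.68% under DESeq2, 3.05% without a filter, 6.88% with only the 4 libraries compared and 11.3% under the likelihood ratio test. Between Cdk9-KD and the hnRNPK-labelled libraries it was 0, with 1 under DESeq2 and 1 under the likelihood ratio test. When single libraries were left out, the median log2FC was -0.29 to 0.25 in the hnRNPK-labelled libraries and -0.35 to 0.012 in Cdk9-KD. The log2FC of Trp53 in Sox2-KD was 0.012 with library totals in place of TMM and -0.16 to 0.031 without single libraries. In Cdk9-KD, without single libraries, it was -0.0072 to 0.47 for Trp53, -0.11 to 1.09 for Mdm2 and -0.36 to 0.035 for Cdkn1a. The cause of these shifts was not tested.

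With the replicate number as a block, the counts against control were 1 in Sox2-KD, 0 in the hnRNPK-labelled libraries and 0 in Cdk9-KD, and 7 genes were DE between Sox2-KD and Cdk9-KD. The correlation of deviations between same-numbered libraries ranged from -0.228 to 0.231 over the pairs of groups. Taken over all genes, it cannot decide whether same-numbered libraries shared more than a number. Of the p53 pathway genes, 74.2% in control, 67.7% in Sox2-KD, 87.1% in the hnRNPK-labelled libraries and 64.5% in Cdk9-KD were higher in replicate 1. The shares of all genes were 50.8%, 48.9%, 51.9% and 50.2%. Whether the replicates were paired was not tested.

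With 2 libraries in a group, the intervals of most genes are wide. Where a library was left out, the lone library of its group was assumed to vary like the others.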
